A study of Mus musculus with 7 samples.

Results

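Oxidative phosphorylation is the last stage of respiration, in which electrons from nutrients pass along complexes I to IV of the inner mitochondrial membrane and the resulting proton gradient drives ATP synthase, complex V. Its subunits come from 2 genomes: most are encoded in the nucleus and imported as proteins, while the remainder are encoded in mitochondrial DNA and translated inside the organelle. Long-term hematopoietic stem cells are known for relying less on oxidative phosphorylation while they are quiescent and more once they are activated. The genes described here are the rows of the gene table whose symbols name subunits of complex I (Nduf and mt-Nd), complex II (Sdh), complex III (Uqcr and mt-Cytb), complex IV (Cox4 to Cox8 followed by a letter from a to c, and mt-Co) or complex V (Atp5 and mt-Atp), without pseudogene symbols. Of 48440 rows, 99 had such a symbol, 86 nuclear and 13 mitochondrial. With a mean of at least 10 normalized read pairs over the 7 libraries, 92 genes remained, 79 nuclear and 13 mitochondrial, among 16251 genes that passed the same minimum. Complexes are assigned by symbol alone, so Ndufa4, known as a subunit of complex IV despite its symbol, and its relative Ndufa4l2 are counted with complex I.

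RNA, labelled as polyA RNA, was sequenced from LSK cells (Lin-, Sca1+, cKit+), the bone marrow fraction that holds hematopoietic stem cells and multipotent progenitors. The cells were sorted by flow cytometry 77 days after transplantation from C57BL/6 mice that had received 9.5 Gy in 2 doses 3 hours apart and then bone marrow from a wild-type donor (WT, n = 4) or a constitutive PROSER1 knockout donor (PROSER1 KO, n = 3). PROSER1 is a protein that interacts with the TET enzymes, which oxidize 5-methylcytosine, and the comparison asks how its loss alters gene expression in these cells. Both groups were irradiated and transplanted, so neither shows the unperturbed state, and blood cells of the recipient that survived irradiation could be present in either. Read pairs on genes numbered 40845213, 42742329, 33143619 and 35160254 for the WT replicates in order, and 37140168, 45140743 and 40794865 for PROSER1 KO.

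The mRNA of the targeted gene was not lower in the PROSER1 KO libraries. Proser1 stood at 2019, 2153, 2103 and 2077 normalized read pairs in the WT libraries and at 2464, 2359 and 2338 in the libraries labelled PROSER1 KO. These 3 were above every WT library, and the log2 fold change of 0.19 (SE 0.05) did not pass limma's test after Benjamini-Hochberg adjustment (adjusted p = 0.204). A read count over a whole gene does not show whether the transcript is intact, so the group is written below as the libraries labelled PROSER1 KO. Where PROSER1 KO stands alone, as in replicate names and captions, it gives the label only. Markers of the sorted fraction were abundant in all 7 libraries: Kit, the receptor behind cKit, had a mean of 28597 normalized read pairs, Ly6a, which encodes Sca1, 5012, and Cd34 32235. Markers of antibody-secreting plasma cells were abundant as well, led by Jchain with a mean of 237976.

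The mitochondrial genes split into a set of high and a set of low genes. Per kb of exon, mt-Co1, a catalytic subunit of complex IV, had the highest level of all 92 genes, with 141316 normalized read pairs. It was followed by mt-Cytb, the mitochondrially encoded subunit of complex III, at 85586, and by the complex I subunits mt-Nd1 at 55765, mt-Nd5 at 38246, mt-Nd2 at 27771 and mt-Nd4 at 19027. All 6 were above the highest nuclear gene, Atp5a1, at 8806 per kb. The complex I subunit mt-Nd6, the only one of the 13 on the other strand, stood lower, at 1425 per kb. The RNA was labelled as polyA RNA, and how fully each mitochondrial transcript was captured in it was not tested.

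The other 6 mitochondrial genes were lower again, although their proteins enter the same complexes. On the same scale, mt-Atp6 and mt-Atp8, subunits of the membrane part of ATP synthase, had 539 and 49.2 normalized read pairs per kb. The complex IV subunits mt-Co2 and mt-Co3 had 526 and 461, and the complex I subunits mt-Nd3 and mt-Nd4l had 183 and 74.6. These 6 genes lie next to each other on the mitochondrial genome between mt-Co1 and mt-Nd4, and the split was drawn after their values were seen. The 7 higher genes held at least 99.7% of the signal on the 13 genes in every library, and mt-Co1 alone between 42.9% and 44.5%.

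**Figure D1:**
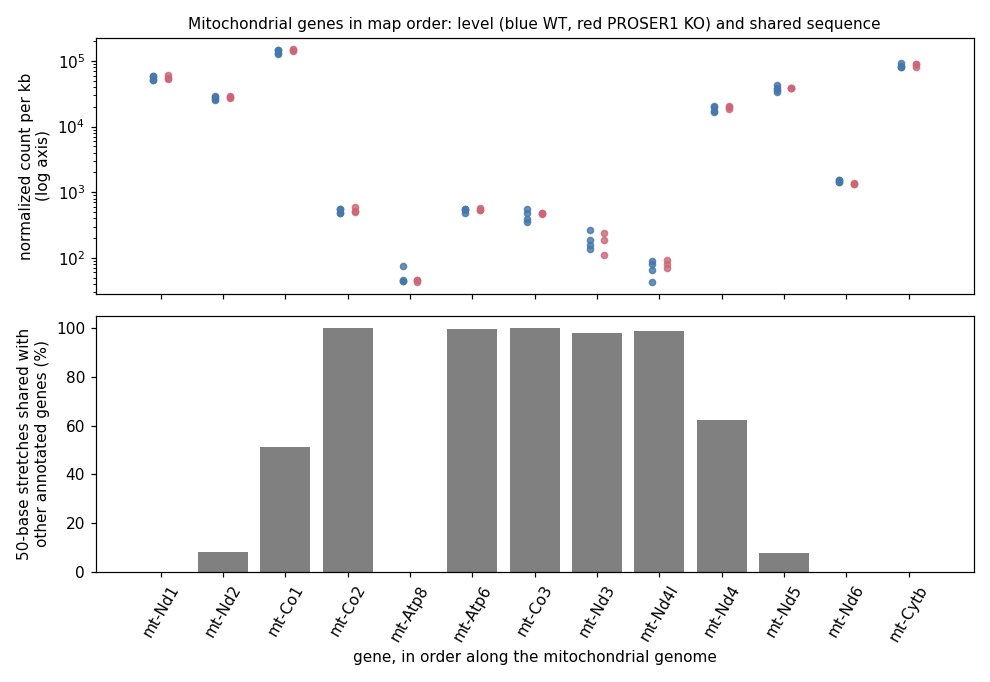
The upper panel plots the normalized read pairs per kb of exon of the 13 mitochondrial genes, on a log axis and in their order along the mitochondrial genome, with 1 point for each of 4 WT (blue) and 3 PROSER1 KO (red) libraries; the lower panel plots the share of each gene's 50-base stretches that also occur in another annotated gene. The 6 genes from mt-Co2 to mt-Nd4l have means between 49.2 and 539 per kb, the 7 others means between 1425 and 141316, and 5 of the 6 share at least 98.0% of their stretches with other genes.

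What 5 of the 6 low genes share is a near-identical copy in the nuclear genome. An annotated block of 7 unprocessed pseudogenes at chr1:24611535-24616197 on the minus strand (GRCm38) repeats the mitochondrial order from the last part of mt-Co1 to the first part of mt-Nd4. Among 50-base stretches of the gene, 100% of those of mt-Co2, 99.9% of mt-Co3, 99.5% of mt-Atp6, 98.8% of mt-Nd4l and 98.0% of mt-Nd3 were also found in another annotated gene. The share was 62.2% for mt-Nd4, 51.1% for mt-Co1, 8.19% for mt-Nd2 and 7.61% for mt-Nd5, and 0 for mt-Nd1, mt-Cytb and mt-Nd6. It was also 0 for mt-Atp8, which on the mitochondrial genome lies between mt-Co2 and mt-Atp6. The corresponding 233 bases of the chromosome 1 block, between Gm10925 and Gm28661, carry no annotated gene, and their sequence was not analysed here.

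The copies of mt-Co2, mt-Atp6, mt-Co3, mt-Nd4l and mt-Nd4 had no mismatch to the gene over 681, 678, 783, 294 and 876 aligned bases. The copy of mt-Nd3, Gm28438, differed at 1 of 345 bases (T3C, counted from 1 at the first base of mt-Nd3), and the copy of mt-Co1, Gm29216, at 6 of 492, all within its first bases. Both pairs are printed from the GENCODE M21 transcripts, 5′ to 3′, with mismatched bases in capitals, to show how little separates a read of the gene from a read of the copy. The first pair covers bases 1 to 80 of mt-Nd3:
mt-Nd3: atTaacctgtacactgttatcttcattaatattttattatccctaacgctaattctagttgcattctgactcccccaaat
Gm28438: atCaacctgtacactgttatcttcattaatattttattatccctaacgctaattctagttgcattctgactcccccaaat
The second covers bases 1054 to 1133 of mt-Co1, where the copy begins:
mt-Co1: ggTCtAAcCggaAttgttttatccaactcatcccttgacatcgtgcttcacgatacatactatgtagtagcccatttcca
Gm29216: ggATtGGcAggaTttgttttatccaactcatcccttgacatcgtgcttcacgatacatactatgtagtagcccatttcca

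The copies themselves carried counts of the same order as the low genes. Gm28661, the copy of mt-Co2, had a mean of 372 normalized read pairs beside 359 on mt-Co2, and Gm28437, the copy of mt-Co3, had 404 beside 362. Gm10925 had 597 beside 367 on mt-Atp6, Gm10222 21.6 beside 22.1 on mt-Nd4l, and Gm28438 23.7 beside 63.5 on mt-Nd3. How read pairs that map equally well to both places were treated is not given in the sources used here, and its part in the low values was not tested. The values of the 5 genes with a near-complete copy, and to a lesser degree those of mt-Co1 and mt-Nd4, are therefore uncertain as measures of the mitochondrial transcript. The order and the split of levels given above, and the shares and variation that use them, describe the counts assigned to each gene.

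The nuclear genes covered a narrower range. The median level was 1590 normalized read pairs per kb, and 67 of the 79 genes had a mean of at least 1000 read pairs. Complex V held the 2 highest, Atp5a1 with 8806 and Atp5b with 7370 per kb, the subunits of the catalytic head of ATP synthase. Together they carried between 21.6% and 22.1% of the nuclear signal in every library. In complex IV the highest was Cox8a at 5722 per kb, among the Nduf genes Ndufa4 at 3917, in complex III Uqcrh at 3229 and in complex II Sdha, the flavoprotein that oxidizes succinate, at 2999. The lowest in the same order were Cox7a1 at 27.9, Ndufa4l2 at 15.0, Uqcrq at 850 and Sdhc at 1019, with Atp5l at 420 in complex V. Exon length here is the union over all annotated transcripts, which lowers the level per kb of a gene with a long, rarely used exon.

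Several subunits exist as isoforms with known tissue bias, and in the Cox6a, Cox6b, Cox8 and Ndufa4 families the LSK libraries held mostly the widely expressed one. Of the Cox6a signal per kb, Cox6a1, the broadly expressed isoform, took 90.0% ± 2.00 in WT (SD, n = 4) and 85.4% ± 3.71 in the libraries labelled PROSER1 KO (SD, n = 3), and Cox6a2, the heart and skeletal muscle isoform, took the remainder. Cox6b2, known from testis, took 12.5% ± 1.61 and 12.9% ± 0.36 of the Cox6b signal in the same groups. The muscle isoform Cox7a1 took 0.45% ± 0.14 and 0.37% ± 0.17 of the Cox7a signal. Most of that family's signal was on Cox7a2l, a relative known from respiratory supercomplexes, with 70.4% ± 2.29 and 70.7% ± 1.55, and the broadly expressed Cox7a2 took 29.1% ± 2.31 and 28.9% ± 1.71. Of the Ndufa4 signal, Ndufa4l2, known as a hypoxia-induced relative of Ndufa4, took 0.43% ± 0.24 and 0.32% ± 0.24. Cox8b and Cox8c were at 0 in all 7 libraries, beside a mean of 3542 normalized read pairs on Cox8a; a count of 0 allows up to 3 read pairs per library, or between 2.54 and 3.48 normalized. The 3 genes for subunit c of the ATP synthase ring, which encode the same mature protein, were used unevenly, with 48.7% ± 0.41 on Atp5g3, 42.1% ± 1.07 on Atp5g2 and 9.18% ± 0.69 on Atp5g1 in WT. The share of Atp5g1 rests on an exon union of 4912 bases, against 1675 for Atp5g2 and 2181 for Atp5g3; without division by length, their means were 2522, 3961 and 5868 normalized read pairs. Parts of Cox7a2l, Atp5g2, Atp5g1, Cox6a1 and Cox6a2, 17.7%, 14.8%, 11.6%, 7.18% and 3.33% of their 50-base stretches, also occur in other genes.

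The minimum mean of 10 removed 7 nuclear rows. Just inside it were mt-Atp8, between 8.64 and 15.4 over the 7 libraries, Cox7a1 with a mean of 14.9 and Ndufa4l2 with 16.4, and just outside Cox6c2 with 4.88 and Ndufs6b with 3.06. Cox6c2, Ndufs6b, Ndufb4c and Ndufa11b, 4 of the 7 rows removed, are annotated as processed pseudogenes although their symbols do not say so, and all 92 genes that passed are annotated as protein coding. The symbol pattern also leaves out true subunits. Cox4i1, the common isoform of a core complex IV subunit, had 8141 ± 438 normalized read pairs in WT and 8189 ± 566 in the libraries labelled PROSER1 KO, and Cox4i2, its lung isoform, 24.0 ± 5.58 and 31.9 ± 10.1. Cyc1 of complex III had 3355 ± 222 and 3220 ± 237, the complex I acyl carrier protein Ndufab1 2104 ± 207 and 2208 ± 87.1, and Cycs, the mobile electron carrier cytochrome c, 1684 ± 150 and 1608 ± 108 (SD, n = 4 and n = 3). None of these 5 passed the test.

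Taken over whole libraries, the mitochondrial genes carried more read pairs than the nuclear ones. In replicate order, the 13 mitochondrial genes took 1.18%, 1.17%, 1.33% and 1.29% of all read pairs in WT, and their share was 1.26%, 1.37% and 1.32% in PROSER1 KO. The 79 nuclear genes took 0.704%, 0.715%, 0.713% and 0.624% in WT and 0.687%, 0.747% and 0.651% in the libraries labelled PROSER1 KO. Wilson 95% intervals reached at most 0.0039 percentage points to either side. They cover counting error only and do not measure the spread between separate samples. The groups overlapped in both shares, with WT replicate 4 lowest and PROSER1 KO replicate 2 highest for the nuclear genes.

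The balance between the genomes differed more within groups than between them. The ratio of summed mitochondrial to summed nuclear normalized read pairs was 1.68, 1.64, 1.86 and 2.08 in WT and 1.83, 1.83 and 2.03 in the libraries labelled PROSER1 KO. WT replicate 4 had the highest ratio and WT replicates 1 and 2 the lowest, so the PROSER1 KO values lay inside the WT range. On the log2 scale the mean ratio was 0.85 ± 0.16 in WT and 0.92 ± 0.09 in the libraries labelled PROSER1 KO (SD, n = 4 and n = 3), a difference of 0.07 that is smaller than the spread between WT libraries. It was 0.14 without WT replicate 4 and 0.02 without WT replicate 2 or without PROSER1 KO replicate 3. Sums over a bulk sample cannot tell a different mix of cells from a different amount of RNA per cell.

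**Figure D2:**
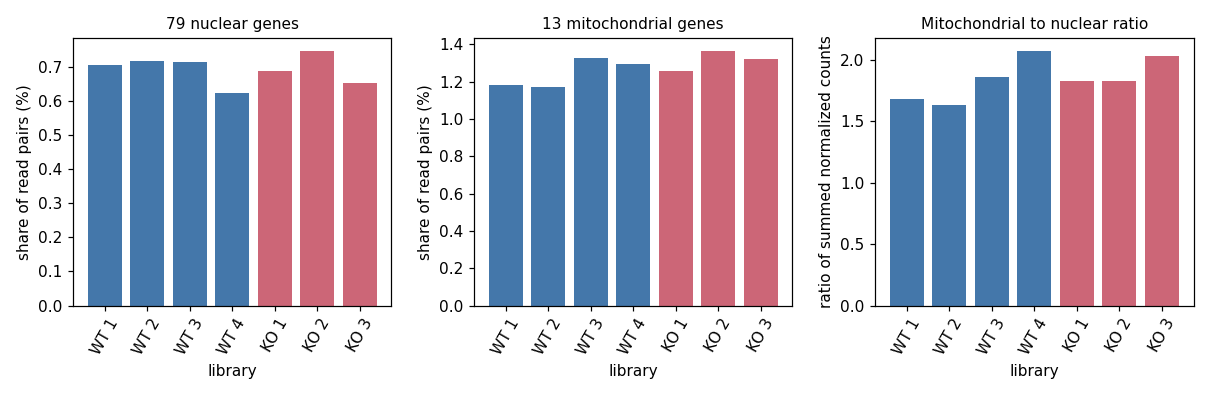
Bars give, for each of 4 WT (blue) and 3 PROSER1 KO (red) libraries, the percent of read pairs on the 79 nuclear genes, the percent on the 13 mitochondrial genes, and the ratio of the summed normalized read pairs. The nuclear share is lowest in WT replicate 4 at 0.624%, and the ratio runs from 1.64 in WT replicate 2 to 2.08 in WT replicate 4, with all 3 PROSER1 KO libraries between them.

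The nuclear genes moved together from library to library. Of the 79, 71 were above their own mean over the 7 libraries (on the log2 scale) in PROSER1 KO replicate 2 and 66 in WT replicate 1, against 13 in WT replicate 4 and 12 in PROSER1 KO replicate 3. Over all 16251 tested genes, the same share was between 50.5% and 51.3% in every library. The scaling of the libraries levels their typical gene, so this share was nearly set in advance and is no measure of chance. Other groups of genes with like levels were not compared. WT replicate 4 was the lowest library for 32 nuclear genes and PROSER1 KO replicate 3 for 26, while PROSER1 KO replicate 2 was the highest for 35. The shifts were small: the mean log2 deviation of the 79 genes was 0.05, 0.04, -0.01 and -0.06 in WT, in replicate order, and the PROSER1 KO values were -0.00, 0.05 and -0.07.

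The plasma cell markers varied between the same libraries. The summed level of the 6 listed markers was 289667, 238477, 168624 and 422039 normalized read pairs in WT and 218494, 197542 and 294854 in the libraries labelled PROSER1 KO. It was highest in WT replicate 4 and, within its group, in PROSER1 KO replicate 3, the libraries where most nuclear oxidative phosphorylation genes were low. WT replicate 1 was second among the WT libraries for these markers and had the highest nuclear mean, so the orders differ. Immunoglobulin genes took 8.55%, 7.09%, 5.15% and 12.0% of read pairs in WT and 6.93%, 5.80% and 8.71% in the libraries labelled PROSER1 KO. All 6 plasma cell markers were measured above the minimum, none was at 0 in all libraries, and none was called. As a share of read pairs outside immunoglobulin and mitochondrial genes, a scale chosen after seeing the data, the nuclear genes had their lowest values in WT replicate 4 at 0.720% and PROSER1 KO replicate 3 at 0.724%, against 0.748% to 0.805% in the other 5.

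The summed level of the stromal and endothelial markers was also highest in the libraries with the lowest nuclear means. It was 426, 176, 554 and 694 normalized read pairs in WT and 444, 506 and 1095 in the libraries labelled PROSER1 KO. PROSER1 KO replicate 3 was highest, WT replicate 4 second and WT replicate 2 lowest, and the groups overlapped. Kdr, Cdh5 and Lepr were highest in PROSER1 KO replicate 3 and next in WT replicate 4, whereas Col1a1 was highest in PROSER1 KO replicate 1 at 59.5, and Cxcl12 was higher in WT replicate 3 at 209 than in WT replicate 4 at 109. All 5 listed genes were measured above the minimum, led by Kdr with a mean of 211, none was at 0 in all libraries and none was called. Of the other lists, B lineage and mast cell markers had their highest sum in WT replicate 4 and macrophage markers in PROSER1 KO replicate 3, while LSK, T cell, erythroid, granulocyte and plasmacytoid dendritic cell markers had theirs in WT replicate 3 or PROSER1 KO replicate 1. The part of any of these cell types in the library differences was not tested.

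**Figure D3:**
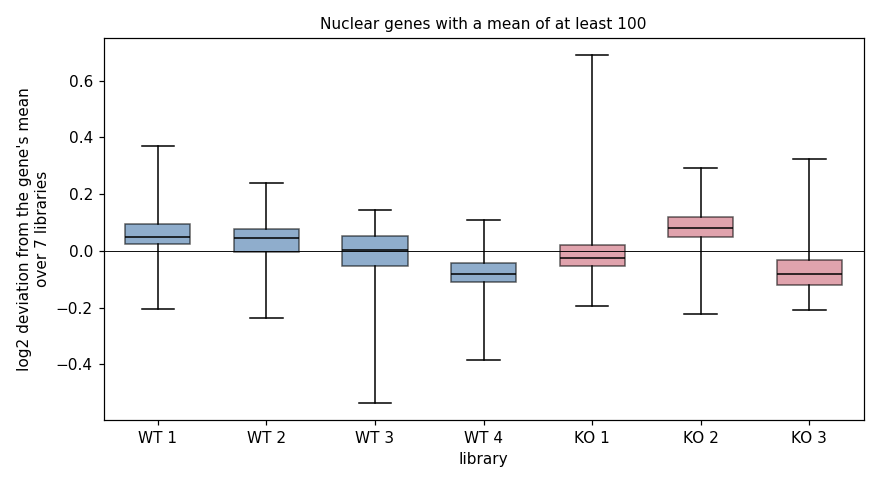
Each box shows, for 1 library, the log2 deviation of the 77 nuclear genes with a mean of at least 100 from the gene's own mean over the 7 libraries (box, quartiles with the median; whiskers, lowest and highest gene; WT blue, PROSER1 KO red). Boxes of WT replicate 4 and PROSER1 KO replicate 3 lie mostly below 0 and that of PROSER1 KO replicate 2 mostly above it, so libraries of both groups lie on both sides.

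Between the groups, none of the 92 genes passed the threshold of an adjusted p under 0.05 and a fold change above 1.5 in limma, where 42 of 16251 genes did, a background of 0.258%. Over the whole table DESeq2 called 165 genes, and limma called 23 without PROSER1 KO replicate 2. At an unadjusted p under 0.05 limma's count was also 0 of 92, beside 9.73% over all tested genes. edgeR and DESeq2 called 0 of the 92 as well, and at an unadjusted p under 0.05 edgeR had 0 and DESeq2 had 1, Cox6a2. Over all genes that each tool tested, such a p was found for 1605 in edgeR and 1841 in DESeq2. With a background of 0.258%, a count of 0 among 92 is near the background. Libraries of the groups did not overlap for 1 gene, mt-Nd6, which was lower in every library labelled PROSER1 KO, beside a background of 4.83% in that direction and 5.17% in the other.

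The intervals show how small a difference could be seen. For 76 of the 79 nuclear genes (96.2%) and 10 of the 13 mitochondrial genes (76.9%), the 95% interval of the fold change lay within 1.5-fold in either direction, against 65.7% of all tested genes and 96.6% of those with a mean of at least 1000. The median nuclear interval reached 0.15 to either side on the log2 scale. The nuclear genes outside this count were Ndufa4l2, Cox7a1 and Cox6a2, and the mitochondrial ones mt-Nd3, mt-Nd4l and mt-Atp8, of which 5 had means under 100. The median log2 fold change was -0.01 over the nuclear and 0.05 over the mitochondrial genes, beside 0.00 over all tested genes. Scaling to read pairs on nuclear genes shifted all genes alike, to a nuclear median of 0.01 beside 0.02 over all tested genes. The nuclear median was above 0 without WT replicate 1, WT replicate 2 or PROSER1 KO replicate 3. Of the 79 nuclear genes, 34 were positive with all libraries, 16 without PROSER1 KO replicate 2, 19 without WT replicate 4 and 53 without PROSER1 KO replicate 3.

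**Figure D4:**
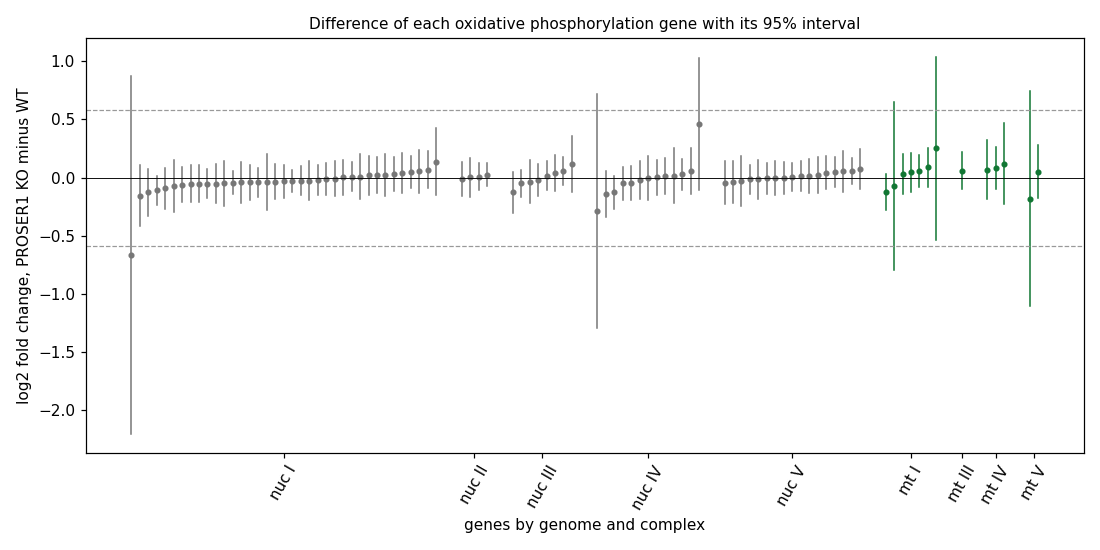
Points give the log2 fold change (PROSER1 KO minus WT) of each of the 92 genes with its 95% interval from limma, by genome (nuclear grey, mitochondrial green) and complex; dashed lines mark a 1.5-fold difference. All intervals include 0, and the widest belong to genes with low counts, such as Ndufa4l2 and mt-Atp8.

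Complex I had the most nuclear genes, 37, and their median log2 fold change was -0.03, with 12 positive and 25 negative. The counts were 6 and 31 without PROSER1 KO replicate 2, 7 and 30 without WT replicate 4, and 17 and 20 without PROSER1 KO replicate 3. The 37 genes added up to 73551 ± 2507 normalized read pairs in WT and 72525 ± 3662 in the libraries labelled PROSER1 KO (SD, n = 4 and n = 3). Ndufs8, an iron-sulfur subunit, had 2126, 2246, 2330 and 2274 normalized read pairs in WT and 2004, 2182 and 2058 in the libraries labelled PROSER1 KO. The groups overlapped, and its log2 fold change of -0.11 (95% interval -0.23 to 0.01, adjusted p = 0.559 in limma) had the lowest p among the nuclear genes. Ndufs8 lies outside the rule that chose the other named genes and was singled out after its values were seen. Ndufs1 and Ndufv1, core subunits that carry electrons from NADH, differed less, with log2 fold changes of -0.03 and -0.04 and intervals of -0.12 to 0.07 and -0.14 to 0.06.

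In complexes II and III the summed levels of the groups lay close together. Sdha had 12034, 12625, 12638 and 11816 normalized read pairs in WT and 12429, 12879 and 12194 in the libraries labelled PROSER1 KO, which overlap. The 4 complex II genes had log2 fold changes between -0.01 and 0.03, and Sdhb was the negative one. Without WT replicate 4 or without PROSER1 KO replicate 2, 3 of the 4 were negative. The 8 nuclear complex III genes summed to 25446 ± 829 and 25452 ± 1744. Uqcrfs1, the Rieske iron-sulfur subunit, and Uqcrc1, a core subunit, had log2 fold changes of -0.02 and -0.05, and Uqcrq, the gene of this complex with the lowest p, -0.13 (95% interval -0.30 to 0.05).

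In complex IV the isoform Cox6a2 had the largest positive difference of the 92 genes. Its values were 434, 284, 231 and 256 normalized read pairs in WT and 541, 287 and 420 in the libraries labelled PROSER1 KO. WT replicate 1 was above PROSER1 KO replicates 2 and 3, so the groups overlapped, and the log2 fold change of 0.46 (95% interval -0.11 to 1.03) did not pass limma's test (adjusted p = 0.594). It was 0.25 without PROSER1 KO replicate 1 and 0.70 without PROSER1 KO replicate 2 (adjusted p = 0.438), so single libraries set its size. Siglech, a marker of plasmacytoid dendritic cells, stood at 186, 38.8, 74.7 and 108 in WT and 215, 99.0 and 162 in the libraries labelled PROSER1 KO. Both genes were highest in PROSER1 KO replicate 1, then in WT replicate 1 and then in PROSER1 KO replicate 3. Markers of other cell types had the same first 3 libraries: Ebf1 of the B lineage had 494, 258 and 250 in them, and Cd3g of T cells 697, 52.9 and 38.4. The other 3 markers of plasmacytoid dendritic cells did not follow this order: Ly6d was highest in WT replicate 4 at 3880 with a log2 fold change of -0.28, and those of Irf8 and Tcf4 were 0.03 and 0.05, with WT replicate 4 above PROSER1 KO replicate 3 in both. The 4 listed markers of these cells, all measured above the minimum, none at 0 in all libraries, none called and led by Tcf4, summed to 17478, 14979, 13285 and 18276 in WT and 18522, 13686 and 15781 in the libraries labelled PROSER1 KO. Siglech, Ebf1 and Cd3g were singled out after their values were seen, and the part of any of these cells in the Cox6a2 values was not tested.

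The other isoform, Cox6a1, had 3064, 2895, 2725 and 2334 in WT and 2598, 2522 and 2335 in the libraries labelled PROSER1 KO. WT replicate 4 was as low as PROSER1 KO replicate 3, and the log2 fold change was -0.14 (95% interval -0.34 to 0.06). It was -0.09 without WT replicate 1 and -0.22 without WT replicate 4 (adjusted p = 0.338). Cox8a, which had the lowest p in this complex, stood at 3857, 3667, 3637 and 3526 in WT and at 3120, 3701 and 3285 in the libraries labelled PROSER1 KO. PROSER1 KO replicate 2 lay inside the WT range, and the log2 fold change was -0.13 (adjusted p = 0.559). It was -0.07 without PROSER1 KO replicate 1 and -0.20 without PROSER1 KO replicate 2 (adjusted p = 0.347).

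The 17 nuclear genes of complex V differed little between the groups. They summed to 113480 ± 5101 normalized read pairs in WT and 114060 ± 6968 in the libraries labelled PROSER1 KO (SD, n = 4 and n = 3), with 9 positive and 8 negative log2 fold changes between -0.04 and 0.07. Single libraries turn this balance either way: it was 4 and 13 without WT replicate 4 or without PROSER1 KO replicate 2, 14 and 3 without WT replicate 1, 16 and 1 without WT replicate 2 and 17 and 0 without PROSER1 KO replicate 3. Atp5b, the catalytic beta subunit, had 32190, 32479, 31288 and 29096 in WT and 31203, 32998 and 29334 in the libraries labelled PROSER1 KO. Its log2 fold change was -0.00 (95% interval -0.14 to 0.13) and that of Atp5a1 0.00 (-0.12 to 0.13).

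Among the mitochondrial genes, 10 had a positive and 3 a negative log2 fold change, and all intervals included 0; mt-Co1 turned negative, at -0.10, with quantile normalization. Without WT replicate 2 the counts were 8 and 5, and the 7 complex I genes turned from 5 positive and 2 negative to 3 and 4, with a median of -0.00. The most abundant, mt-Co1, had 203380, 197562, 224772 and 226587 normalized read pairs in WT and 215702, 231549 and 228779 in the libraries labelled PROSER1 KO. Its groups overlapped, with WT replicates 1 and 2 below the other libraries, and its log2 fold change was 0.08 (95% interval -0.09 to 0.26, adjusted p = 0.783 in limma). It was 0.05 without WT replicate 2. The 6 highest genes, including mt-Cytb, mt-Nd1, mt-Nd2, mt-Nd4 and mt-Nd5, had log2 fold changes between 0.03 and 0.09, and their lowest library was WT replicate 2.

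The gene on the other strand had a negative difference, as did mt-Nd3 and mt-Atp8. The counts of mt-Nd6 were 794, 789, 733 and 751 normalized read pairs in WT and 716, 702 and 692 in the libraries labelled PROSER1 KO. Every library labelled PROSER1 KO was below every WT library, by a small margin, with a log2 fold change of -0.12 (95% interval -0.28 to 0.03) that did not pass limma's test (adjusted p = 0.591). It overlaps mt-Nd5 by 14 bases, and whether read pairs were counted by strand is not given in the sources used here. The part of polyA capture in its counts was not tested.

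The lowest mitochondrial counts varied widely. The values of mt-Nd3 ran from 47.8 to 90.8 in WT and from 38.6 to 82.6 in the libraries labelled PROSER1 KO, and those of mt-Nd4l from 12.8 to 26.4 and from 21.2 to 27.1. In mt-Atp8, WT replicate 1 had 15.4 normalized read pairs and the other 6 libraries between 8.64 and 9.39. Of its bases, 43 also belong to mt-Atp6. The coefficient of variation over the 7 libraries had a median of 18.5% for the 6 low genes, against 6.10% for the 7 others and 5.95% for the nuclear genes. The ranges were 5.99% to 29.2%, 5.46% to 7.66% and 1.93% to 57.3% in that order. Counting error is larger relative to the mean in genes with few read pairs, and its part in this difference was not tested.

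Lists of genes that build, express and feed the complexes held no called gene either, beside 0.258% of all tested genes called in limma. A count of 0 in lists of this size is near that background. Of 15 complex I assembly factors, 31 tested assembly factors of complexes II to V, 31 genes of mitochondrial DNA and RNA machinery, 9 nuclear regulators, 77 tested mitochondrial ribosomal proteins and 18 genes of the TCA cycle and pyruvate dehydrogenase, limma called 0, and edgeR and DESeq2 called 0 too. At an unadjusted p under 0.05 the counts were 1, 3, 3, 0, 2 and 0 in that order, all lower in the libraries labelled PROSER1 KO, beside 9.73% over all tested genes. Their median log2 fold changes were -0.00, -0.02, 0.00, 0.05, -0.01 and -0.04, beside 0.00 over all tested genes. Positive log2 fold changes numbered 6, 8, 16, 6, 37 and 6, and negative ones 9, 23, 15, 3, 40 and 12, beside 50.6% positive over all tested genes. More values were negative than positive for both lists of assembly factors, the mitochondrial ribosomal proteins and the TCA cycle genes. Among the nuclear members such counts turned with single libraries left out, and for these lists they are not given that way here.

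Single genes of these lists differed by less than 1.5-fold. Sdhaf1, an assembly factor of complex II, had the lowest p of all the lists, with a log2 fold change of -0.31 (95% interval -0.54 to -0.08, adjusted p = 0.372 in limma). Ndufaf3, which helps assemble complex I, had -0.26 (adjusted p = 0.427). Ssbp1, which coats single-stranded mitochondrial DNA, and Elac2, which trims the 3′ ends of transfer RNAs, had -0.15 and -0.16. The groups did not overlap in these 4 genes, which were picked for their low p. Over the 6 lists, in the order above, every library labelled PROSER1 KO was below every WT library for 1, 3, 3, 0, 2 and 0 genes and above for 0, 1, 0, 0, 1 and 0, beside a background of 4.83% below and 5.17% above. The other genes with an unadjusted p under 0.05 were Cox19 and Ttc19 in assembly, Polg2 in the DNA and RNA machinery, and Mrpl4 and Mrpl57 in the ribosome, with log2 fold changes of -0.16, -0.24, -0.21, -0.14 and -0.18; the groups overlapped in Ttc19 and not in the other 4. Cox18 was also lower in every library labelled PROSER1 KO, and Cox20 and Mrps36 were higher, with log2 fold changes of -0.16, 0.16 and 0.19. Ttc19, Polg2, Cox18, Cox20 and Mrps36 were named after their values were seen. Nrf1, a transcription factor of nuclear genes for respiration, had 0.11 (95% interval -0.02 to 0.24).

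The mitochondrial ribosomal RNAs are made from the same strand as most mitochondrial members. In mt-Rnr1, the small ribosomal RNA, normalized read pairs were 4835, 4620, 5487 and 5154 in WT and 5121, 6363 and 6503 in PROSER1 KO. Replicates 2 and 3 of PROSER1 KO were above all WT libraries and replicate 1 was within the WT range. The log2 fold change was 0.25 (95% interval 0.05 to 0.45, adjusted p = 0.403 in limma). That of mt-Rnr2, the large one, was 0.13 (95% interval -0.01 to 0.27). Neither was called by limma, edgeR or DESeq2, and mt-Rnr1 was the 1 of the 2 with an unadjusted p under 0.05 in limma, beside 9.73% over all tested genes. The part of polyA capture in the counts of these ribosomal RNAs was not tested.

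The symbol rule did not use the promoters of the nuclear genes, and some of these hold known motifs. RefSeq promoters of 300 bases (GRCm38.p6) were matched to 66 of the 79 genes, with the first promoter listed for each gene. A core of the sequence bound by nuclear respiratory factor 1, with any base allowed at 1 place, occurred on either strand in 16 of the 66 (24.2%) and in 4.78% of 27025 promoters. CCGGAAGT, the core of ETS family sites such as that of GABPA, occurred in 7.58% and 4.00%, and TATAAA, known from core promoters, in 9.09% and 14.2%. The median GC content of the members' promoters was 57.8%, against 52.7% over all, and the part of base composition in these shares was not tested. Several matches to the first core were held by 4 members, 3 each by Sdha and Ndufb4 and 2 each by Cox6a1 and Uqcrc1, and the other 12 held 1. As examples, the promoters of Sdha and Cox6a1, described above, are printed 5′ to 3′ with the matches in capitals, Sdha at chr13:74350191-74350490 and Cox6a1 at chr5:115348909-115349208, both on the minus strand:
Sdha: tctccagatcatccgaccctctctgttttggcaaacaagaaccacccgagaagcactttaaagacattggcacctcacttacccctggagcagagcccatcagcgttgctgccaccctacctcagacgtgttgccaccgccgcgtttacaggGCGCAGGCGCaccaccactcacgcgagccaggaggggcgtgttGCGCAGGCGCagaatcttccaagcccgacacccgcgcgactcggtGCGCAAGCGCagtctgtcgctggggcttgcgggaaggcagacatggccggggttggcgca
Cox6a1: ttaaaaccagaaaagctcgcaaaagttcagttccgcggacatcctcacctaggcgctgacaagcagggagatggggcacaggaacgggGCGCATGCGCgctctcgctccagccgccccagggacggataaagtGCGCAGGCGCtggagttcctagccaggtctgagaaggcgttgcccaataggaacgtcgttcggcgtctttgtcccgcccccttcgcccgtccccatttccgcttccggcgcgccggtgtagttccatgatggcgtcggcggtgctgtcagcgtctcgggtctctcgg
A match describes the letters of the window and does not show binding.

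Nuclear genes can share sequence with other genes as well. Ndufs3 shared 39.7% of its 50-base stretches, mostly with the pseudogene Gm12251, Ndufb4 37.0% with copies such as Ndufb4c, and Atp5o 34.9% with the antisense gene Gm15976. Ndufb6 shared 34.1% with Smim27, Ndufs5 31.1% with the pseudogene BC002163, Ndufa13 28.5%, mostly with Tssk6, and Cox7c 27.9%, mostly with Gm10012. Shares between 20.2% and 25.9% were found for Cox5b, Uqcrc2, Atp5h, Ndufb9 and Atp5j, and the other nuclear genes tested had smaller shares or none. Their counts are uncertain where reads were split between these genes. The genes with the highest level in each complex as assigned by symbol, Ndufa4, Sdha, Uqcrh, Cox8a and Atp5a1, shared none.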

How the data were processed

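The authors made libraries with a directional kit, trimmed the paired reads (Trimmomatic), aligned them to the mm10 genome (STAR) and counted read pairs per gene (featureCounts); versions, the strand setting and the treatment of multiple mapping are not given in the sources used here. The deposited signal is the read pairs per gene divided by 1 DESeq2 size factor per library. The methods name GENCODE M25, while the header of the ID column names another release. Dividing each value by what 1 read pair is worth in its library gave whole numbers (within 0.01) for 100% of values. In these units 1 read pair is worth between 0.846 and 1.16 normalized read pairs, depending on the library. Intervals and floors cover counting error only.

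Genes with a mean of at least 10 (16251) were tested with limma 3.58.1 in R 4.3.3 (lmFit, eBayes with trend) on log2(value + 1), with Benjamini-Hochberg adjustment over all of them; a gene was called at an adjusted p under 0.05 and a fold change above 1.5. Fold changes on this scale understate those of low genes. edgeR 4.0.16 (quasi-likelihood) and DESeq2 1.42.0 (with its own filter on low counts) were run on the recovered read pairs and called 42 and 165 genes over the whole table. Runs of the fits on simulated data are not reported here, and no result above rests on them. Other pseudocounts, minimum means, scalings and variance settings, a replicate block, and leaving out each library were tried. Replicates differed by far more than sampling noise; the labels call them biological replicates and do not say whether each is 1 animal.

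Exon lengths, positions and shared stretches (exact, on either strand, from the longest transcript) come from GENCODE M21, which matched 48058 of 48440 IDs. Named genes were Proser1, all mitochondrial members, called nuclear members or those with an unadjusted p under 0.05 (none), the highest and lowest level per complex, core subunits, isoform families, subunits missed by the pattern, and the 2 lowest p of each other list. The members and lists were chosen with earlier results of these data known.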

Additional observations from a re-analysis of the deposited data

Results flagged for a closer look

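In the WT group, 1 library stood apart in 6 of 61 values examined. Chance gives about 1 in 20 for a single value. The 61 values come from the same libraries and depend on each other, so their count does not show an excess over chance. The numbers that follow are the gap of the library that stood apart to the nearest WT library, as a fraction of the WT range. The share of read pairs on the 79 nuclear genes (0.878), Atp5g3 (0.835) and the TCA cycle gene Fh1 (0.841) were low in WT replicate 4. The total behind that share includes immunoglobulin genes, at 12.0% in WT replicate 4 and 5.15% to 8.55% in the other WT libraries. Outside immunoglobulin and mitochondrial genes the nuclear share was 0.720% in WT replicate 4 and 0.763% to 0.781% in the others. That scale was not examined for a library apart. WT replicate 1 was high in mt-Atp8 (0.959) and low in Cox7a1 (0.861), and WT replicate 3 was high in Atp5l (0.857). Counts of mt-Atp8 and Cox7a1 are near the minimum mean of 10. The 3 libraries labelled PROSER1 KO were too few for this comparison.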

How the results depend on the processing

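The count of 0 called genes held for the nuclear members, the mitochondrial members and the other mitochondrial lists under every alternative tried, including edgeR, DESeq2 and each left-out library. Over all tested genes the 42 calls became 17 without the mean-variance trend, 80 with robust variance estimates and 165 with DESeq2, and ranged from 23 (without PROSER1 KO replicate 2) to 42 with 1 library left out; the cause was not tested. At an unadjusted p under 0.05, the nuclear members numbered at most 4 (without PROSER1 KO replicate 2) and the mitochondrial ones at most 1 (without the trend). In these settings 1520 and 1525 of all 16251 tested genes had such a p. The nuclear median log2 fold change ranged from -0.05 to 0.03 and the mitochondrial one from 0.02 to 0.10 over left-out libraries. The difference in log2 ratio was 0.02 without WT replicate 2 or without PROSER1 KO replicate 3 and 0.14 without WT replicate 4, so single libraries decide its size. Of the values of single named genes under the alternatives, 1101 kept their sign and 54 changed it, none of them called. With the replicate number as a block, 35 genes were called over the whole table and 0 members. Same-numbered libraries did not deviate together (correlations of 0.02, 0.06 and -0.11), so the numbers were not taken as pairing. Scaling to read pairs outside immunoglobulin and mitochondrial genes, chosen after seeing the data, gave 41 calls and 0 members.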
